A study of Homo sapiens with 9 samples.

Results

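The E2F and pocket protein family was measured here as 10 genes, E2F1 to E2F8, RBL1 and RBL2, of 13391 named genes kept on the array. Members were the probes whose gene symbol, current or earlier, was 1 of these 10. That gave 11 of 24460 probes: 1 for each gene and a second probe for RBL2. All 11 were above the level of the blank spots on 9 of 9 arrays. The cells were RKO, an established human colorectal carcinoma line, in which exon 5 of DICER had been disrupted. DICER cuts precursor RNAs into mature miRNAs, so all 9 arrays, the control included, come from cells with that disruption; the labels do not say whether the line is 1 clone. Cells received double-stranded RNA by lipofection and RNA was taken after 48 h. There was 1 array for each of 9 groups: a negative control oligonucleotide, and a native and a methylated oligonucleotide of let7a, miR-17, miR-21 and miR-200c. The question in the study's description is what a modification of the oligonucleotide does to the action of a miRNA. The labels give neither the methylated base nor the strand.

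E2F proteins are transcription factors that set when genes for DNA replication and cell division are used. E2F1, E2F2 and E2F3 bind DNA with a dimerization partner of the DP family and activate these genes. A pocket protein, mainly RB1, masks these activators, and cyclin-dependent kinases release the mask by phosphorylating the pocket protein. RBL1 and RBL2 are the other pocket proteins. E2F4 and E2F5 act mostly as repressors together with RBL1 and RBL2, E2F6 represses without a pocket protein, and E2F7 and E2F8 repress without a dimerization partner. The miRNA pathway meets this family at several points: E2F1, E2F2, E2F3 and RBL2 have been reported as targets of the miR-17 family, E2F2 and E2F5 as targets of the let-7 family, and E2F3 as a target of the miR-200 family.

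The mature miRNAs that carry these 4 names are shown because a miRNA finds its targets through its seed. The sequences are those of RefSeq (GRCh38.p14, all on the plus strand), written 5′ to 3′, with the seed, bases 2 to 8, in capitals. The labels do not give the sequences of the transfected oligonucleotides, and the strand shown is the one usually taken as the guide. No pair of the 4 shares a seed.
let-7a-5p (chr9:94175962-94175983, 1 of 3 loci): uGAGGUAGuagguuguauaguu
miR-17-5p (chr13:91350618-91350640): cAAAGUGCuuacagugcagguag
miR-200c-3p (chr12:6963742-6963764): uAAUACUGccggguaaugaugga
miR-21-5p (chr17:59841273-59841294): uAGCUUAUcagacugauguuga

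Between 69.4% and 78.2% of probes were above the blank spots on each array. Of the epithelial markers on the array, EPCAM, KRT18, CDH1, CDX2 and VIL1 were detected on 9 of 9 arrays and KRT19 on 1. Of markers of other cells, PTPRC (blood) and COL1A1, COL1A2 and LUM (fibroblasts) were detected on 0 of 9 arrays and CDH5 (endothelium) on 2, whereas CD3E, CD14, LYZ, DCN and PDGFRB lay above the blank spots on 9 and VWF on 7. The let7a and miR-17 pairs did not correlate as their labels pair them. Across 16072 features, centred within each form, the native and methylated arrays correlated with r of 0.70 for miR-200c and 0.46 for miR-21, but -0.22 for let7a and -0.16 for miR-17. The array labelled let7a methylated correlated with miR-17 native (r = 0.69), and the array labelled miR-17 methylated with let7a native (r = 0.56). Which array of each pair departs from its label cannot be told from these correlations. Labels were kept as given. Results for the members and for the E2F target genes are given with and without the arrays labelled miR-17 methylated and let7a methylated. Fits of the other gene lists are given with all arrays only.

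E2F5 was the member that varied most. Its range over the 9 arrays was 1.68 on the log2 scale, wider than that of 99.4% of all features. E2F4 followed with a range of 0.89 and E2F6 with 0.64, while the other 7 members spanned 0.30 (E2F1) to 0.53 (E2F7). The order below E2F5 depends on the background method. With the mean of the blank spots subtracted, E2F7 differed from the control by -0.33 (miR-21 methylated) to 1.13 (let7a methylated). E2F4 then differed by -0.75 (let7a native) to 0.32 (miR-200c methylated). Values below are normalized log2 intensities, a level that can be compared between arrays but not between genes, or differences from the control array on that scale. The arrays measure bulk RNA, so fewer cells that use a gene and less of its RNA per cell cannot be told apart.

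**Figure D1:**
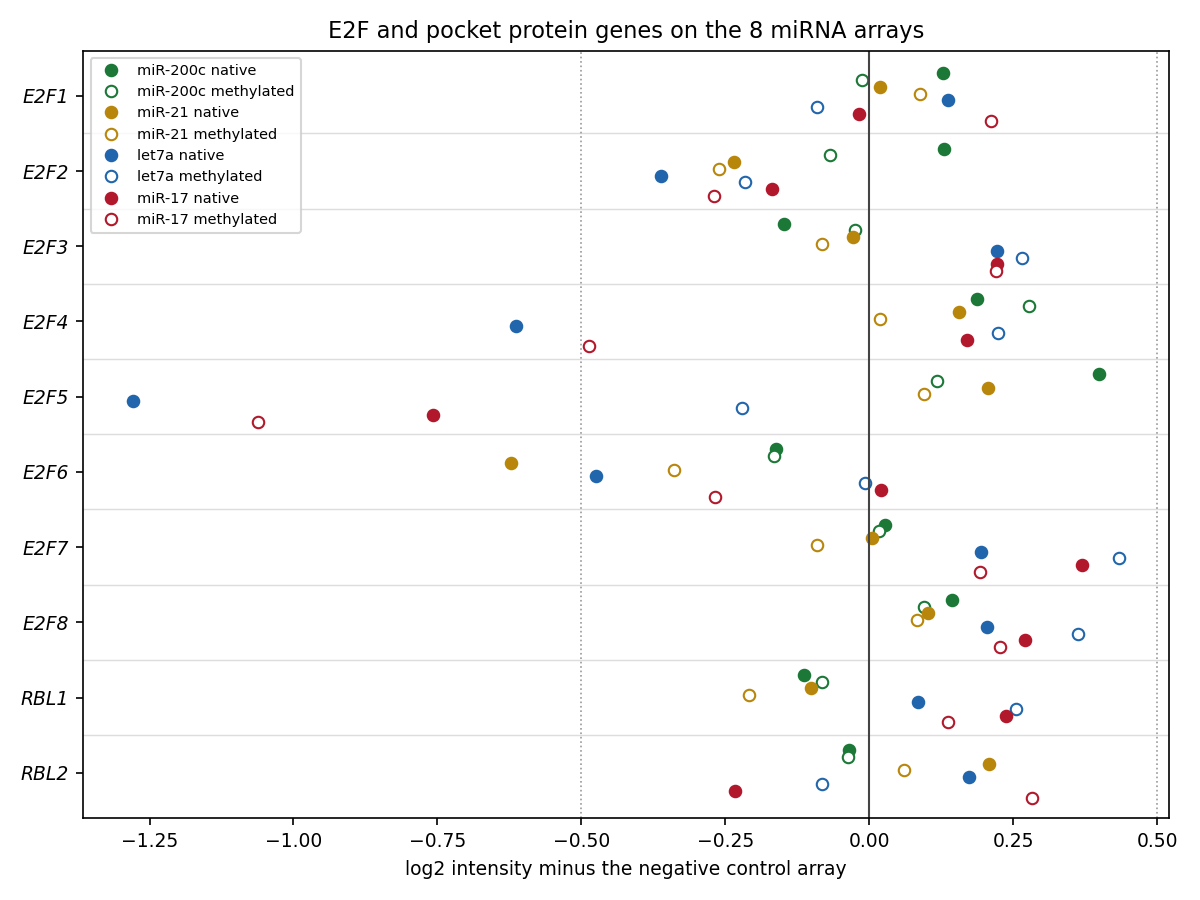
Log2 intensity minus the negative control array (horizontal axis) of the 10 member genes (vertical axis) on the 8 miRNA arrays, 1 point per array, filled for native and open for methylated, with dotted lines at a difference of 0.5 in either direction. E2F5 reached -1.28 on the let7a native array, and E2F3, E2F7, E2F8 and RBL1 were higher on all 4 arrays labelled let7a or miR-17 than on the other 4.

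Among the activators, E2F1 had the narrowest range of the 10 members. This founding member of the family, a driver of S phase entry, had a level of 6.97 on the control array, and its differences from it lay between -0.09 (let7a methylated) and 0.21 (miR-17 methylated). On the miR-17 native array the difference was -0.02. E2F2, the second activator, stood at 7.33 on the control array. It was 0.13 above the control on miR-200c native and below it on the other 7 arrays, by the widest margin on let7a native (-0.36) and by -0.17 on miR-17 native.

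E2F3, the third activator, split the arrays by miRNA. Its level was 6.89 on the control array, 6.74 on miR-200c native, 6.86 on miR-200c methylated, 6.86 on miR-21 native and 6.81 on miR-21 methylated. On let7a native it was 7.11, on let7a methylated 7.15, on miR-17 native 7.11 and on miR-17 methylated 7.11. The 4 arrays labelled let7a or miR-17 were thus all above the control, by 0.22 to 0.26, and all of the other 4 were below it.

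E2F5, a repressor that works with RBL1 and RBL2, was lower than the control on all 4 arrays labelled let7a or miR-17 and higher on the other 4, except that with median scaling of the arrays miR-21 methylated was at -0.02 in place of 0.10. Its level was 8.95 on the control array, 9.35 on miR-200c native, 9.07 on miR-200c methylated, 9.16 on miR-21 native and 9.05 on miR-21 methylated. On let7a native it was 7.67, on let7a methylated 8.73, on miR-17 native 8.20 and on miR-17 methylated 7.89. The difference from the control was -1.28 on let7a native, -1.06 on miR-17 methylated, -0.76 on miR-17 native and -0.22 on let7a methylated. The probe was bright throughout: on its dimmest array, let7a native, the raw signal was still 4.51 times the detection threshold.

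E2F4, the most widely used repressor of the family in resting cells, was low on a pair of arrays with different labels. Its level was 8.54 on the control array and between 8.56 and 8.82 on the 4 arrays labelled miR-200c or miR-21. It was 7.93 on let7a native and 8.06 on miR-17 methylated, but 8.77 on let7a methylated and 8.71 on miR-17 native. Differences from the control were therefore -0.61 on let7a native and -0.49 on miR-17 methylated, and positive on the other 6 arrays, except that with median scaling miR-21 methylated was at -0.09 in place of 0.02.

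E2F6, which represses through chromatin complexes and does not bind pocket proteins, was lowest on miR-21 native. Its level was 8.70 on the control array, 8.07 on miR-21 native and 8.36 on miR-21 methylated. The other values were 8.53 on miR-200c native, 8.53 on miR-200c methylated, 8.22 on let7a native, 8.69 on let7a methylated, 8.72 on miR-17 native and 8.43 on miR-17 methylated. The miR-21 pair (differences of -0.62 and -0.34) overlapped the let7a native array at -0.47.

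The atypical repressors E2F7 and E2F8 were highest on the same 4 arrays as E2F3. E2F7, the member closest to the detection threshold, had a level of 6.25 on the control array, 6.28 and 6.27 on miR-200c native and methylated, and 6.26 and 6.16 on miR-21 native and methylated. It was 6.45 on let7a native, 6.69 on let7a methylated, 6.62 on miR-17 native and 6.45 on miR-17 methylated. The differences from the control on the latter 4 arrays ran from 0.19 to 0.43. Its raw signal came down to 1.29 times the threshold on its dimmest array, and with the mean of the blank spots subtracted in place of normexp the let7a methylated difference was 1.13 rather than 0.43. E2F8 was lowest on the control array (7.14) and highest on let7a methylated (7.50); its differences were 0.08 to 0.14 on the arrays labelled miR-200c or miR-21 and 0.20 to 0.36 on those labelled let7a or miR-17.

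The pocket proteins went different ways. RBL1 stood at 7.12 on the control array and below it on the 4 arrays labelled miR-200c or miR-21, with differences of -0.08 to -0.21. Its difference was 0.09 on let7a native, 0.26 on let7a methylated, 0.24 on miR-17 native and 0.14 on miR-17 methylated, so the groups of 4 did not overlap. RBL2, a reported target of the miR-17 family, was lowest on miR-17 native with both probes. The brighter probe read 8.14 on the control array, 7.91 on miR-17 native and 8.06 on let7a methylated, against 8.32 on let7a native and 8.43 on miR-17 methylated. On the arrays labelled miR-200c or miR-21 that probe read 8.11, 8.11, 8.35 and 8.20, in the order native and methylated of each. The dimmer probe differed from the control by -0.44 on miR-17 native and -0.33 on let7a methylated, where the brighter one differed by -0.23 and -0.08. Over the 9 arrays the probes correlated with r = 0.84.

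**Figure D2:**
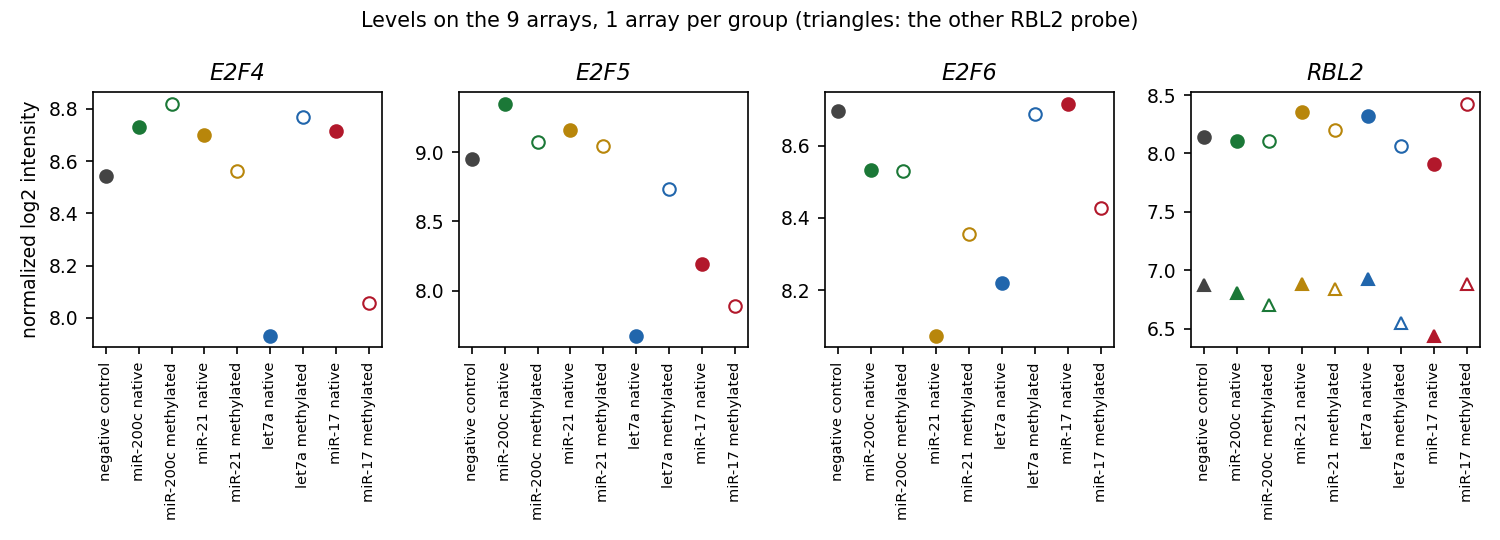
Normalized log2 intensity (vertical axis, a separate scale for each gene that does not start at 0) of E2F4, E2F5, E2F6 and RBL2 on the 9 arrays (horizontal axis), 1 point per array, open for methylated, triangles for the dimmer RBL2 probe. E2F4 was lowest on let7a native (7.93) and miR-17 methylated (8.06), E2F5 on let7a native (7.67), E2F6 on miR-21 native (8.07) and RBL2 on miR-17 native (7.91 with the brighter probe).

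Counted against the single control array with a difference of at least 0.5 on the log2 scale, 5 member values on the 8 miRNA arrays were lower and 0 were higher. With 1 array a group this count has no replicate check, and it depends on the background method: with the mean of the blank spots subtracted it was 8 lower and 5 higher, and from the authors' deposited table it was 8 lower and 13 higher. On let7a native, E2F4 and E2F5 were past it, where 1.61% of all features were lower by that much. E2F5 was the member past it on miR-17 native (background 2.78%) and on miR-17 methylated (2.03%), and E2F6 on miR-21 native (0.772%). No member was lower by 0.5 on miR-200c native (3.85%), miR-200c methylated (3.33%), miR-21 methylated (1.18%) or let7a methylated (2.94%). The share of all features higher by at least 0.5 was 2.56% on miR-200c native, 2.27% on miR-200c methylated, 1.02% on miR-21 native and 1.19% on miR-21 methylated. It was 1.54% on let7a native, 1.92% on let7a methylated, 1.66% on miR-17 native and 1.49% on miR-17 methylated.

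Members reported as targets lay on both sides of the control on the arrays of the miR-17 labels and below it on those of let7a and miR-200c. On miR-17 native the 4 members reported as miR-17 family targets differed from the control by -0.02 (E2F1), -0.17 (E2F2), 0.22 (E2F3) and -0.23 (RBL2). On miR-17 methylated the same genes were at 0.21, -0.27, 0.22 and 0.28. Of the let-7 family targets, E2F5 was at -1.28 and E2F2 at -0.36 on let7a native, and at -0.22 and -0.22 on let7a methylated. Both were also below the control on miR-17 native (-0.76 and -0.17) and miR-17 methylated (-1.06 and -0.27). The let7a and miR-17 pairs are those that did not correlate as labelled. E2F3, a reported miR-200 family target, was at -0.15 on miR-200c native and -0.03 on miR-200c methylated. On miR-21 native and methylated E2F3 was at -0.03 and -0.08. These lists name members only, and single arrays carry no test.

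No group has a replicate array. Spread was taken from a limma fit of the 8 miRNA arrays with additive terms for miRNA and form. Each miRNA has a native and a methylated array there, and 3 residual degrees of freedom remain. They hold the variation of the methylated minus native difference between miRNAs, not replicate error. The let7a and miR-17 pairs, which did not correlate as labelled, are part of it. In this fit 0 of 10 members passed an adjusted p of 0.05 for any miRNA against the other 3. For miR-200c against the other 3, 3.1% of features passed, and 2820 of 16072 features and 3 of 10 members had an unadjusted p under 0.05. E2F5 was 0.76 higher there (SE 0.27, limma adjusted p = 0.208), E2F2 0.28 higher (SE 0.09, adjusted p = 0.152) and E2F3 lower (-0.22, SE 0.07, adjusted p = 0.141). For let7a, miR-17 and miR-21 against the other 3, 0% of features passed, with 1030, 984 and 1138 of 16072 at an unadjusted p under 0.05 and 2, 3 and 3 members among them. E2F5 had an estimate of -0.58 (SE 0.27, adjusted p = 0.798) for let7a and of -0.80 (SE 0.27, adjusted p = 0.812) for miR-17.

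The contrast of the 4 arrays labelled let7a or miR-17 with the 4 labelled miR-200c or miR-21 was chosen after seeing the data, because it does not depend on which of the former labels an array carries. E2F3, E2F7, E2F8 and RBL1 were higher on each of the 4 than on any of the other 4, as were 4.98% of all features. E2F5 was lower on each of them, as were 5.18% of features, and the remaining 5 members overlapped. In the authors' deposited table, where all features stand 0.54 higher on miR-200c methylated, that array lay at 0.44 for E2F3, 0.61 for E2F7 and 0.31 for RBL1 against the control and so overlapped the 4 arrays labelled let7a or miR-17, as it did for E2F8, whereas E2F5 did not overlap. In limma 0.523% of features passed and 0 of 10 members, with 2441 of 16072 features and 4 members at an unadjusted p under 0.05. The estimate was 0.30 for E2F3 (SE 0.06, adjusted p = 0.0782), 0.31 for E2F7 (SE 0.07, adjusted p = 0.107), 0.31 for RBL1 (SE 0.07, adjusted p = 0.125) and -1.03 for E2F5 (SE 0.23, adjusted p = 0.114). With limma on the values of the authors' deposited table E2F5 passed, at -1.23 (adjusted p = 0.000291). E2F4, at -0.34 (SE 0.22, adjusted p = 0.525), ranged from 7.93 to 8.77 within the 4 arrays labelled let7a or miR-17.

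Leaving out the arrays labelled miR-17 methylated and let7a methylated changed these calls. One residual degree of freedom then remains, and let7a native and miR-17 native stand alone and are assumed to vary like the others. E2F5 passed in the 4 contrasts against the other 3 and in the contrast of let7a and miR-17 with miR-200c and miR-21, where its estimate was -1.32 (SE 0.12, adjusted p = 0.000299) and 6.36% of features passed. E2F7 (0.27, adjusted p = 0.00599) and E2F3 (0.31, adjusted p = 0.0313) passed with it. For let7a against the other 3 (background 3.38%), E2F5 fell by 1.23 (adjusted p = 0.0017) and E2F4 fell by 0.78 (adjusted p = 0.0132). For miR-17 (6.61%), E2F5 fell by 0.53 (adjusted p = 0.045) and E2F7 rose by 0.29 (adjusted p = 0.00677).

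For miR-21 against the other 3 in that fit (background 2.08%), E2F5 rose by 0.81 (adjusted p = 0.00575) and E2F7 fell by 0.22 (adjusted p = 0.0224). For miR-200c (15%), E2F5 rose by 0.95 (adjusted p = 0.000313) and E2F2 by 0.33 (adjusted p = 0.0157), while E2F3 fell by 0.23 (adjusted p = 0.048) and E2F7 fell by 0.13 (adjusted p = 0.0475). These contrasts set each miRNA against arrays that include the others, so a low value with let7a also enters the estimate for miR-21.

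Against the control array, assumed to vary like the others and shared by the 4 contrasts, 0 of 10 members passed with all arrays. The background was 0.0373% of features for miR-200c and 0% for let7a, miR-17 and miR-21. In the same order, 1626, 605, 624 and 556 features had an unadjusted limma p under 0.05. At that unadjusted level there were 2 members for let7a, 1 for miR-17 and 0 for miR-200c and miR-21. E2F5 had an estimate of -0.75 for let7a (95% interval -1.71 to 0.21) and of -0.91 for miR-17 (-1.87 to 0.05). Without the 2 arrays, E2F5 fell by 1.38 for let7a (SE 0.18, adjusted p = 0.00511, background 1.32%) and fell by 0.85 for miR-17 (SE 0.18, adjusted p = 0.0346, background 2.43%). E2F7 rose by 0.34 for miR-17 (SE 0.06, adjusted p = 0.0185). For miR-200c (8.56%) and miR-21 (0.678%) 0 members passed against the control, with 0 and 2 at an unadjusted p under 0.05. Of all 16072 features, 3343 and 1795 were at that unadjusted level, in the same order.

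**Figure D3:**
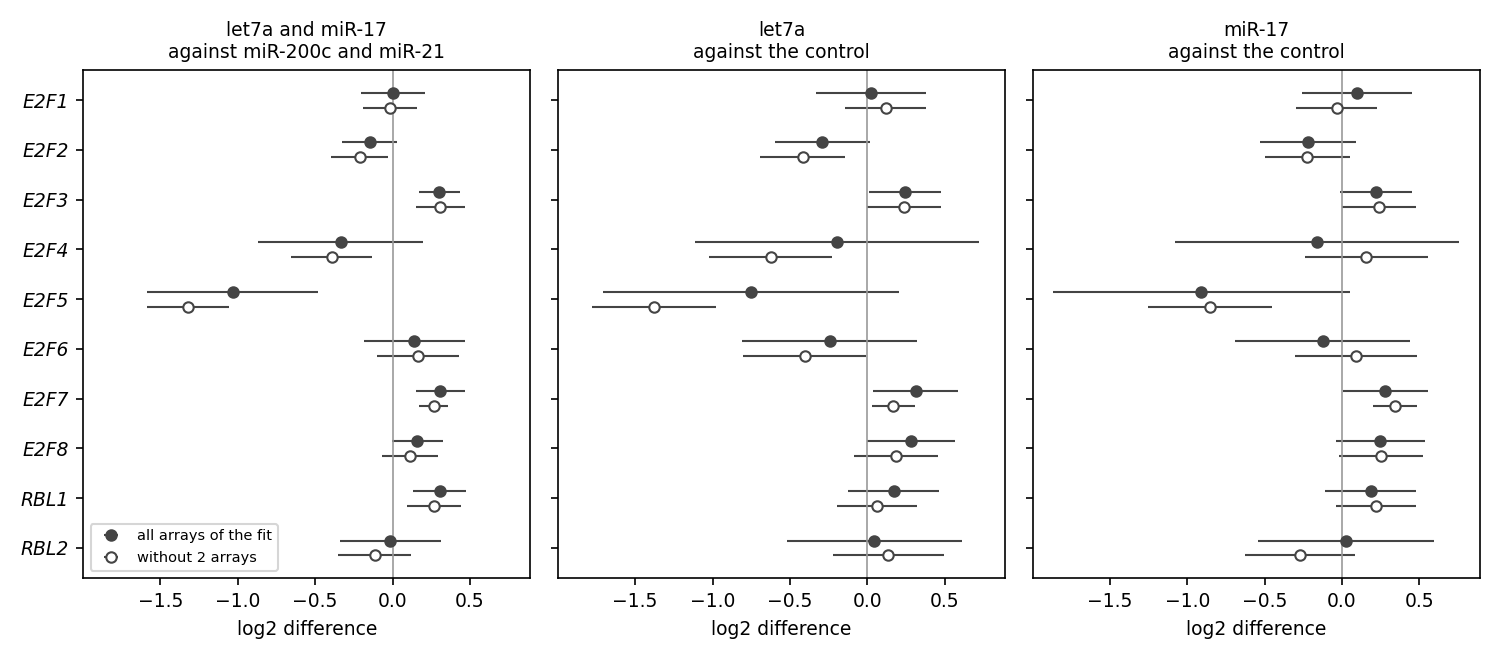
Log2 difference (horizontal axis) of the 10 members (vertical axis) in 3 limma contrasts, with bars for the 95% interval, filled with all arrays of the fit and open without the arrays labelled miR-17 methylated and let7a methylated. The interval of E2F5 for let7a against the control ran from -1.71 to 0.21 with all arrays and from -1.78 to -0.98 without the 2.

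Methylated oligonucleotides were compared with native ones over the 4 pairs. In the additive fit 0 of 10 members and 0% of features passed, with 108 features and 0 members at an unadjusted p under 0.05. The estimates for members lay between -0.04 (E2F2) and 0.11 (E2F6), and the 95% interval for E2F5 was -0.46 to 0.64. With only the miR-200c and miR-21 pairs 0.0187% of features passed and again 0 members, of which 0 had an unadjusted p under 0.05. Of all 16072 features, 647 were at that unadjusted level. Within those pairs no member differed by more than 0.28, the value of E2F6 for miR-21 and, as a fall, of E2F5 for miR-200c (-0.28).

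Within the let7a pair E2F5 was 1.06 higher and E2F4 0.84 higher on the array labelled methylated. In the miR-17 pair the same genes were at -0.30 and -0.66, and RBL2 was 0.52 higher. Of all features, 6.18% in the let7a pair and 5.89% in the miR-17 pair differed by at least 0.5, against 1.14% for miR-200c and 0.635% for miR-21. These are the pairs whose arrays did not correlate as labelled, so the form of the oligonucleotide and the identity of the array cannot be told apart in them.

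**Figure D4:**
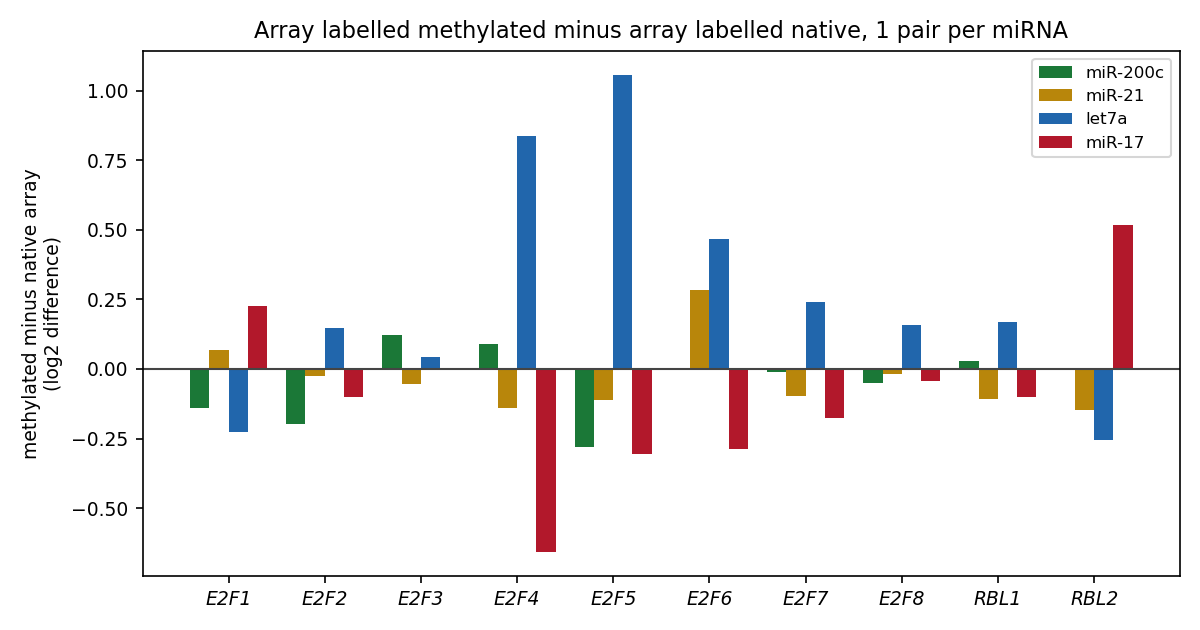
Log2 intensity of the array labelled methylated minus that of the array labelled native (vertical axis, bars from 0) for the 10 members (horizontal axis) in each of the 4 miRNA pairs, 1 pair each with no replicate. Bars of the miR-200c and miR-21 pairs stay within 0.28 of 0, while E2F4 and E2F5 reached 0.84 and 1.06 in the let7a pair.

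Several members varied together over the 9 arrays. E2F7 and RBL1 (r = 0.96), E2F7 and E2F8 (0.93), E2F3 and RBL1 (0.93) and E2F3 and E2F7 (0.88) went together, and E2F4 went with E2F5 (0.80). E2F3 and E2F5 ran opposite (r = -0.84). These correlations share 9 arrays and their normalization and are given as a description. Among 13390 other genes, KCNK6, a potassium channel, had the pattern most like that of E2F5 (r = 0.97), followed by FAM222B, EDEM2, CFAP263 and SERTAD3 (0.95 each). For E2F4 the nearest were TMED4, C19orf53, TENT2 and A2M (0.97 each) and PPT2 (0.96). For E2F6 they were ABCG1 (0.94), ST6GAL1 (0.91), CEBPD (0.91), ABCB10 (0.90) and ACSL1 (0.89). A high r does not mean a large change. Over the 9 arrays A2M spanned 0.12, ABCG1 0.15 and CFAP263 0.19, against 1.02 for TMED4 and 0.77 for KCNK6. On the control array A2M, ABCG1 and CFAP263 were dim, at 6.13, 6.05 and 6.02.

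Several E2F genes are themselves regulated by E2F, and promoters of 3 of the members that went together, E2F3, E2F7 and RBL1, are shown for that reason. Of the 10 genes, 8 had an entry in the RefSeq promoter windows of GRCh38.p14, each from 250 bases before to 50 bases after a start site. The E2F element was searched as TTTNNCGC on both strands (GCGNNAAA on the other), with overlapping matches counted. It occurred in 6.89% of 35116 windows. Matches were found in E2F1 (4), E2F2 (3), E2F3 (1, in 1 of its 2 windows) and RBL1 (2), and these letters were not in the windows of E2F4, E2F6, E2F7 or RBL2. The cell cycle homology region, searched as TTTGAA on both strands, occurred in 15.2% of windows and was matched in E2F3 and in 1 of 2 windows of RBL2. A match describes the letters and is not a measured binding site. Capitals mark the E2F element, and each window is written in the direction of the gene.
E2F3 (chr6:20401629-20401928, plus strand): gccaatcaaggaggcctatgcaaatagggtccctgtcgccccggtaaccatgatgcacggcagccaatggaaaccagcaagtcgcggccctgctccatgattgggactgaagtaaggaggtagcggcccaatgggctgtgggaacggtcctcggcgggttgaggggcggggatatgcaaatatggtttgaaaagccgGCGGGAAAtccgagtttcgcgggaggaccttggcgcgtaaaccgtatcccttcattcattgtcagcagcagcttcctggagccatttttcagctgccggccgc
E2F7 (chr12:77065520-77065819, minus strand): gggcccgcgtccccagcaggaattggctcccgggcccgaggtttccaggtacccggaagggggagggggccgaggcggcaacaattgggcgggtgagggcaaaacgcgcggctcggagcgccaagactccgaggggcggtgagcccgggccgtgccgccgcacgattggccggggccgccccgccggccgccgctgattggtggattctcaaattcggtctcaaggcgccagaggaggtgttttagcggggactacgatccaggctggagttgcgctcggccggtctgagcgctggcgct
RBL1 (chr20:37095948-37096247, minus strand): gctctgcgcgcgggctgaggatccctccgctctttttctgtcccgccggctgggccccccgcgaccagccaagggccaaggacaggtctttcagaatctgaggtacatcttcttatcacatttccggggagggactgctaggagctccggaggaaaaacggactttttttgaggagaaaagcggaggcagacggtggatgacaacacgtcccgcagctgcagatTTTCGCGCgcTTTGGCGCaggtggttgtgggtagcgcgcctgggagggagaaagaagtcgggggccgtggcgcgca

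In RBL1 the matches TTTCGCGC and TTTGGCGC began 26 and 16 bases before the start site, and in E2F3 the match GCGGGAAA, on the other strand, lay 53 to 46 bases before it.

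Of RB1 and the dimerization partners TFDP1, TFDP2 and TFDP3, 0 of 4 passed in any limma contrast with all arrays. At most 1 had an unadjusted p under 0.05 in a contrast, as did 108 to 2820 of 16072 features, depending on the contrast. RB1, the founding pocket protein, was below the control on 7 arrays (differences of -0.17 to -0.43) and 0.05 above it on miR-21 native. TFDP1 differed from the control by -0.60 on miR-21 native and -0.48 on miR-21 methylated, and by -0.05 to 0.20 on the other 6 arrays. Its limma contrast for miR-21 against the other 3 had an adjusted p of 0.392 with all arrays. There 1 of these 4 genes had an unadjusted p under 0.05, as did 1138 of 16072 features. TFDP2 stayed between -0.13 and 0.14.

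The MuvB core joins E2F4 and RBL1 or RBL2 in the repressor complex of resting cells. Of the genes of this core and MYBL2, listed together, 0 of 6 passed in limma with all arrays. MYBL2, itself a classical E2F target, was at 0.43 on let7a methylated and -0.14 on let7a native. LIN52 was at -0.26 on both let7a native and miR-17 methylated, and RBBP4, a histone chaperone, was 0.16 to 0.52 above the control on all 8 arrays. For let7a and miR-17 against miR-200c and miR-21, 3 of the 6 had an unadjusted p under 0.05, as did 2441 of 16072 features, and the median difference of the 6 was 0.07 against -0.01 over all features.

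Of the 7 partners of E2F6 in its chromatin complex, 2 passed with all arrays, both lower for miR-200c against the other 3, where 3.1% of features passed in either direction. RNF2, a ubiquitin ligase for histone H2A, fell by 0.63 (SE 0.08, adjusted p = 0.0152), with differences from the control of -0.84 on miR-200c native and -0.89 on miR-200c methylated. PCGF6, a polycomb ring finger protein, fell by 0.75 (SE 0.14, adjusted p = 0.043). E2F6 itself was below the control on both miR-200c arrays (differences of -0.16 and -0.16), and its estimate in the same contrast was 0.12 (SE 0.16, adjusted p = 0.79).

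Upstream of the pocket proteins, 1 of 16 cyclins, kinases and inhibitors passed with all arrays, in a contrast where 3.1% of features passed. CDK2, the kinase that works with cyclin E and cyclin A, fell by 0.97 for miR-200c against the other 3 (SE 0.11, adjusted p = 0.0129). Its differences from the control were smaller, at -0.66 on miR-200c native and -0.57 on miR-200c methylated. On the other 6 arrays CDK2 lay 0.21 to 0.50 above the control, which also enters that estimate. CDKN1A, an inhibitor of that kinase, was at -1.94 on miR-17 native and -1.61 on let7a methylated, and between -0.35 and 0.12 on the other 6 arrays. CCND1, cyclin D1, was at -1.31 and -1.48 on the same arrays. It was also below the control on miR-200c native (-0.69), miR-200c methylated (-0.58), miR-17 methylated (-0.61) and let7a native (-0.27). On miR-21 native and methylated it was above the control (0.42 and 0.22). CDK6, a partner of D cyclins, was below the control on all 8 arrays (-0.18 on miR-17 native to -0.57 on let7a native), and CDK4, another such partner, was above it on all 8 (0.11 on miR-17 methylated to 0.61 on let7a native). The E cyclins gave -0.53 for CCNE1 on miR-17 native, with 0.16 on miR-17 methylated, and -0.45 to 0.10 for CCNE2 outside miR-21 methylated, where it was at -0.61. CDC25A, the phosphatase that activates CDK2, was at -0.44 on let7a native and -0.48 on miR-21 methylated.

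The genes that E2F proteins switch on were read out as 35 of 38 listed replication and cell division genes. With all arrays 0 of 35 passed in any limma contrast. For let7a and miR-17 against miR-200c and miR-21, 16 of 35 had an unadjusted p under 0.05, as did 2441 of 16072 features, and the median difference was 0.33, against -0.01 over all features. On single arrays the list lay highest on let7a methylated and miR-17 native. On let7a methylated 32 of 35 were above the control, with a median difference of 0.41, and on miR-17 native 32 of 35, with a median of 0.34. On let7a native and miR-17 methylated 19 of 35 were above it, with a median of 0.07 on each. With miR-21 the medians were -0.22 (native) and -0.18 (methylated), with 24 and 26 of 35 below the control. With miR-200c they were -0.01 and 0.00, where medians over all features ran from 0.00 to 0.02 on the 8 arrays.

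CCNA2, cyclin A2, was the highest of the list on both arrays with the raised medians, at 1.11 on miR-17 native and 1.0 on let7a methylated, against 0.24 on let7a native and -0.15 on miR-17 methylated. TYMS, thymidylate synthase, was at 0.75 on miR-17 native and 0.44 on let7a native. CLSPN, a checkpoint mediator, was at -0.95 on miR-17 native but at 0.36 on let7a methylated. CDT1, a replication licensing factor, was lowest of the list on let7a native (-0.64), where RRM1, a subunit of ribonucleotide reductase, was highest (0.56). RRM2, its partner subunit, was at -0.33 on miR-17 native, and GINS2, a helicase subunit, at -0.34 on let7a native.

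Without the arrays labelled miR-17 methylated and let7a methylated, miR-17 and let7a have 1 array each, so effect sizes alone are given for this list. For miR-17 against the other 3, CCNA2 rose by 1.05, TK1, thymidine kinase, rose by 0.85 and CLSPN fell by 0.78. For let7a against the other 3, CDT1 was at -0.82 and CLSPN at 0.92. In both contrasts the other 3 miRNAs include miR-21, on whose arrays the list lay low. The median difference of the 35 was 0.36 for miR-17 against the other 3 and 0.26 against the control. Over all features it was 0.01 in each. For let7a the medians of the list were -0.03 and 0.05. The miR-17 estimates rest on the miR-17 native array alone. On that array the repressor E2F5 was at -0.76, the repressors E2F7 and E2F8 at 0.37 and 0.27, the activators E2F1, E2F2 and E2F3 at -0.02, -0.17 and 0.22, and CDKN1A at -1.94; the part of any of these in the values of the list was not tested.

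**Figure D5:**
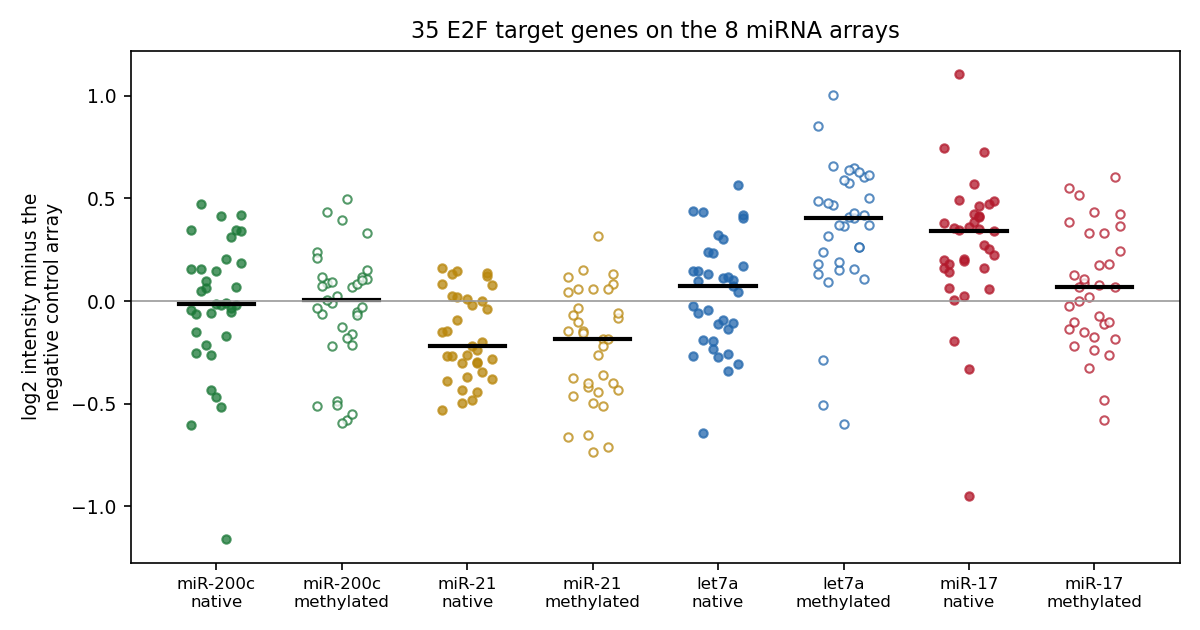
Log2 intensity minus the negative control array (vertical axis) of the 35 measured E2F target genes on each of the 8 miRNA arrays (horizontal axis), 1 point per gene, open for methylated, with a black bar at the median. The medians on let7a methylated (0.41) and miR-17 native (0.34) were the highest of the 8, and those on miR-21 native (-0.22) and miR-21 methylated (-0.18) the lowest.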

How the data were processed

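Gene expression was measured on 9 one-colour arrays, 1 per group. Per the file headers, the deposited values are raw spot medians, an intensity read in the Cy5 channel (635 nm) from which nothing had been subtracted. The authors' deposited table of processed intensity values, on a linear scale with a median of 25 in each column and dim probes left empty, was used as an alternative (its making: not given in the sources used here). Background was corrected with limma normexp (offset 50, limma 3.58.1, R 4.3.3), 9 probes marked as outliers and all control spots were dropped, and arrays were quantile normalized and put on a log2 scale. A probe was detected above the mean plus 2 SD of 2680 blank spots; 17684 probes detected on at least 5 of 9 arrays were kept, and each gene was represented by its brightest probe on average (16072 features). A probe whose symbol, RBP3, is an old synonym of E2F1 and the current symbol of another gene was not counted as E2F1.

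Groups were taken from the sample labels. Tests were limma fits with an intensity trend over all features, adjusted by Benjamini-Hochberg, with a threshold of 0.05: miRNA and form over the 8 miRNA arrays, and control and miRNA with form over 9 arrays, both with 3 residual degrees of freedom. The fits were tested on simulated data. No label says that arrays are separate cultures of a treatment, so p-values reflect array-to-array spread, which may be technical, and the number of arrays limits the precision. The members and gene lists were chosen with earlier results of these data known. All members are named; list genes are those past the threshold with all arrays, or the lowest and highest pair on miR-17 native and let7a native, and RB1, TFDP1, TFDP2, CCNE1, CCNE2, MYBL2 and CDC25A. CDKN1A, CCND1, CDK4, CDK6 and TK1 were singled out after their values were seen. Alternatives were the background method, normalization, filters, probe rule, variance trend, form term, each array left out and the authors' table.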

Additional observations from a re-analysis of the deposited data

Results flagged for a closer look

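For 4 members the methylated minus native difference had opposite signs in the let7a and miR-17 pairs, at a size of at least 0.25 in each. E2F4 was at 0.84 in the let7a pair and -0.66 in the miR-17 pair. E2F5 was at 1.06 and -0.30, and E2F6 at 0.47 and -0.29. RBL2 went the other way, at -0.25 and 0.52. With 1 pair per miRNA no degree of freedom remains for an interaction, so the difference between the pairs was not tested. The arrays of both pairs did not correlate as labelled, and the part of the labels in these values was not tested.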

How the results depend on the processing

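Stability was tallied for the 2 members with the largest t, in size, in each contrast with all arrays. Of their values under the alternatives, 354 kept direction and side of the threshold, 10 newly passed and 6 reversed. Other members are not in this tally, though some newly passed, such as RBL1 for let7a and miR-17 against miR-200c and miR-21 without the form term. Reversed were E2F2, methylated minus native (0.0657 with the authors' table, and -0.1079 to 0.007 with an array left out, positive without either miR-200c array), E2F6 in that contrast (-0.0028 without either let7a array) and E2F3 for miR-200c against the control (0.0215 with the authors' table). The count of members called was 0 in the contrasts with all arrays. Without the arrays labelled miR-17 methylated and let7a methylated it was 4 (miR-200c), 2 (let7a), 2 (miR-17) and 2 (miR-21) against the other 3, 3 for let7a and miR-17 against miR-200c and miR-21, and 1 (let7a) and 2 (miR-17) against the control. It was 1 (E2F5) with the authors' table for miR-200c against the other 3 and for the pooled contrast, and 3 (E2F3, E2F7, RBL1) in the latter without the form term. Leaving out each array gave 0 to 2 members for both of these contrasts: 2 without let7a native and 1 without let7a methylated. Single-array differences of at least 0.5 numbered 5 lower and 0 higher; with blank subtraction they were 8 and 5, in the values the authors deposited they were 8 and 13, and with a normexp offset of 16 there were 2 higher. The authors' table moves all features by 0.54 on miR-200c methylated and 0.25 on miR-17 native. Features called for miR-200c against the other 3 numbered 498, 277 to 1027 over processing settings and 2 to 912 with an array left out; for the pooled contrast 84, 22 to 460 and 0 to 333; for miR-200c against the control 6, 1 to 167 and 0 to 49. Over processing settings the contrasts at 0 reached 31 (miR-21), 3 (let7a) and 10 (miR-17) against the other 3, 12 for methylated minus native, and 7 (miR-21), 8 (let7a) and 8 (miR-17) against the control. Without the 2 arrays the features called rose to 2408 (miR-200c), 544 (let7a), 1063 (miR-17) and 334 (miR-21) against the other 3, 1022 for the pooled contrast, 3 for methylated minus native, and 1376, 212, 390 and 109 against the control, in the same order. All 11 member probes were detected on 9 of 9 arrays under the 3 thresholds. The miRNA was the block that pairs native and methylated arrays in the model.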
